A study of Mus musculus with 6 samples.

Results

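The Cadm internodal adhesion complex comprised 7 of the 54109 genes listed in the count tables: the adhesion molecule genes Cadm1, Cadm2, Cadm3 and Cadm4 and the genes of their intracellular scaffold partners Mpp6, Epb41l3 and Dlg1. The members were given by gene symbol from their known roles, with no threshold on a measured value, and each matched 1 Ensembl gene. Earlier results of these data were known when the members and the gene lists used below were chosen. Messenger RNA libraries were sequenced from 6 cultures of Msc80, a mouse Schwann cell line kept in medium with serum. In 3 of them (genotype Sox10ko) CRISPR/Cas9 had been used against Sox10, whose product is a transcription factor of the neural crest and of glia, and 3 were wild type for Sox10 (control). The Sox10ko cultures are labelled as a cell clone, without a statement of whether the 3 replicates came from 1 clone or several, so loss of Sox10 and the properties of a single clone cannot be told apart. The cultures of a group are called biological replicates, but separate origins are not described, and the p-values measure the spread between these cultures.

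Cadm proteins, also known as nectin-like or SynCAM molecules, are transmembrane adhesion proteins with extracellular immunoglobulin domains that bind one another across cell contacts. In peripheral nerve, Cadm4 on the Schwann cell membrane binds Cadm3 and Cadm2 on the axon along the internode, the myelinated stretch between nodes of Ranvier, and the short cytoplasmic tails of Cadm proteins recruit membrane skeleton and PDZ-domain proteins. Mpp6 encodes a palmitoylated MAGUK scaffold, Epb41l3 a FERM-domain linker to the spectrin and actin skeleton, and Dlg1 a MAGUK scaffold with a role in limiting myelin growth.

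For the Cadm genes, the RefSeq promoter window (250 bases before to 50 after the annotated start, GRCm38.p6) is shown for the paralogue with the highest level in this line, Cadm4, and for both paralogues that were barely read, Cadm2 and Cadm3. Sequences run 5′ to 3′ on the strand of the gene, with CpG dinucleotides in capitals. The windows are chr7:24481773-24482072 on the plus strand for Cadm4, chr16:67620859-67621158 on the minus strand for Cadm2 and chr1:173367646-173367945 on the minus strand for Cadm3.
Cadm4: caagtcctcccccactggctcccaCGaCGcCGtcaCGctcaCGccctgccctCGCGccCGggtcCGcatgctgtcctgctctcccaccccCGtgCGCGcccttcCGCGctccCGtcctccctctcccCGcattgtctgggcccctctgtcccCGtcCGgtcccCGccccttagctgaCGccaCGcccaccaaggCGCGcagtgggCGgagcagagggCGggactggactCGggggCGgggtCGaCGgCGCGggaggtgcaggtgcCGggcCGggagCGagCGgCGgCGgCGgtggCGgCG
Cadm2: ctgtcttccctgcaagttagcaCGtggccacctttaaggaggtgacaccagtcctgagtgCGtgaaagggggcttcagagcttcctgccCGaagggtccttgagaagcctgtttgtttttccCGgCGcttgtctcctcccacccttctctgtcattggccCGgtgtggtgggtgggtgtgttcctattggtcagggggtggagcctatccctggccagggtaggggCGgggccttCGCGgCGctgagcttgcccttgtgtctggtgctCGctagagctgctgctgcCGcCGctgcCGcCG
Cadm3: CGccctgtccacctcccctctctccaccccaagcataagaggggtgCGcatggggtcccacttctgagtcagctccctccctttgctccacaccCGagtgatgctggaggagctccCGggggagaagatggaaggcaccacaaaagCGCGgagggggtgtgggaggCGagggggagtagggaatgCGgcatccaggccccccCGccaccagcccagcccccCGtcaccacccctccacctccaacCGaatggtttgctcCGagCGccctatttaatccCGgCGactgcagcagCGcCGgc

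The Cadm4 window held 40 CpGs and 77.0% G+C, the Cadm2 window 15 CpGs and 62.7% G+C, and the Cadm3 window 17 CpGs and 66.7% G+C. The median of all 32851 promoter windows of the same length was 7 CpGs and 52.7% G+C. The Cadm4 count stood at the 96.5th percentile of these windows, and those of Cadm2 and Cadm3 at the 67.0th and 70.3rd percentiles. RefSeq windows were matched for 6 of the 7 members, all but Cadm1. Both strands were searched for the 8 SOX-type words of 7 bases that have A or T at the first and second base, then CAA, again A or T, and a final G. A match stood in 3 of the 12 member windows, 1 of Epb41l3 (AACAATG) and 2 of Dlg1. Of all promoter windows, 24.6% held such a word, and a match here is only a description of the letters.

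The data were read counts per gene, with 32328618 to 41529422 reads in the Sox10ko libraries and 37473994 to 41834431 in the control libraries. Levels are given in CPM, reads of a gene scaled to a common library size with TMM. A log2 fold change is Sox10ko over control ± SE from edgeR's quasi-likelihood test, with p-values adjusted over the 15427 tested genes. Sox10 itself was read at 82.3, 67.5 and 116 CPM in Sox10ko, against 606, 627 and 617 CPM in control (log2 fold change -2.80 ± 0.20, edgeR adjusted p = 0.000186). The tables count reads per gene, so where in Sox10 the remaining reads lie is not known. Schwann cell markers stood at a summed 445 to 659.8 CPM in Sox10ko and 5234 to 5794 CPM in control libraries. Of the 12 listed, the edited gene Sox10 among them, 10 were lower and 0 higher in Sox10ko, where 14.7% of all tested genes were lower; Sox10 is 1 of the 10, and Gfap was testable only through its control reads. Ncam1 and L1cam did not pass. In a bulk culture, fewer cells of a type and less RNA per cell cannot be told apart.

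Cadm1 was the only member to pass the test in the main analysis. It fell to 19.0% of the control mean in the Sox10ko cultures. Cadm4, the most abundant member per length in both groups, and the scaffold genes Mpp6, Epb41l3 and Dlg1 did not pass, although Cadm4 and Mpp6 did so under some alternative settings, and Cadm2 and Cadm3 had few or no reads in every library. Of the 7 members, 5 had enough reads for the test. Among these, 1 was called lower and 0 higher (edgeR adjusted p under 0.05), a share of 1 in 5 where 32.0% of all tested genes were called, 14.7% lower and 17.3% higher. The median log2 fold change of the tested members was 0.21, against 0.02 over all tested genes.

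**Figure D1:**
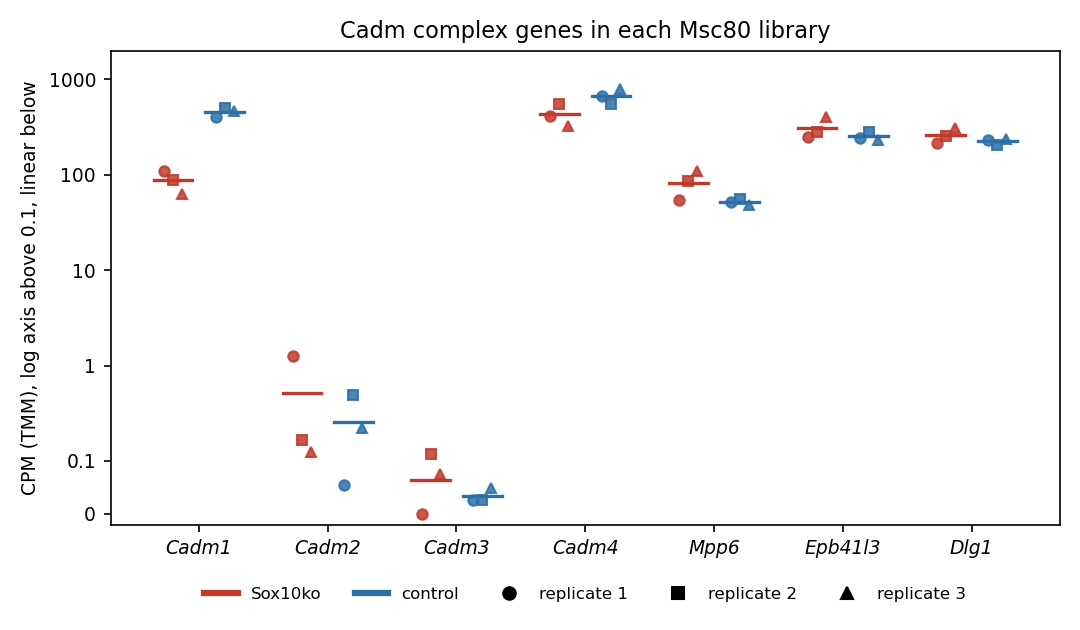
CPM of the 7 members in each library (points; the marker shape gives the replicate number), Sox10ko in red and control in blue, with the group mean as a line. The axis is logarithmic above 0.1 CPM and linear below. Cadm1 was lower in all 3 Sox10ko libraries than in any control library, and Cadm2 and Cadm3 lay near 0 in both groups.

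Cadm1 (ENSMUSG00000032076) lies on the plus strand of chromosome 9 from 47530173 to 47857637 in GRCm38, with 10 annotated transcripts. The gene encodes an adhesion molecule found on neurons, glia and epithelia, first described in lung cancer as a tumour suppressor. Its level was 109.8, 88.7 and 63.6 CPM in Sox10ko replicates 1, 2 and 3, against 401, 504 and 471 CPM in control replicates 1, 2 and 3. The highest Sox10ko library lay well below the lowest control library, as was the case for 1 of the 5 tested members. Groups did not overlap in 49.3% of all tested genes. The mean was 87.3 ± 23.1 CPM in Sox10ko and 459 ± 52.6 CPM in control (SD, n = 3 each), from 9994 and 53762 reads. The level was 5.25-fold lower in Sox10ko, a difference beyond the replicate spread (log2 fold change -2.39 ± 0.21, 95% interval -2.88 to -1.90, edgeR adjusted p = 0.000339). Cadm1 passed in all 13 alternative settings, including without each library in turn, with a log2 fold change between -2.60 and -2.22 (adjusted p at most 0.00355).

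Cadm4 (ENSMUSG00000054793; chromosome 7, plus strand, 24482023 to 24504539) encodes the Cadm protein that Schwann cells are best known for. Its level was 409.5, 556 and 323 CPM in the Sox10ko libraries, in replicate order, against 675, 552 and 799 CPM in the control replicates. Both groups overlapped narrowly, because Sox10ko replicate 2 exceeded control replicate 2. The mean was 429.7 ± 118 CPM in Sox10ko and 675 ± 123 CPM in control (SD, n = 3 each). The log2 fold change of -0.65 ± 0.22 had an unadjusted 95% interval of -1.17 to -0.13 and did not pass (edgeR adjusted p = 0.0594). It did pass without Sox10ko replicate 2 (log2 fold change -0.89, edgeR adjusted p = 0.0163), with DESeq2 (adjusted p = 0.0148) and with no low-count filter (edgeR adjusted p = 0.0186). Over all 13 alternatives the adjusted p ran from 0.0148 to 0.176, and every alternative gave a lower level in Sox10ko.

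Cadm2 and Cadm3, the family members usually assigned to the axonal side, were at the limit of detection. Cadm2 (ENSMUSG00000064115; chromosome 16, minus strand, 66655421 to 67620908) had 42, 7 and 5 reads in Sox10ko replicates 1, 2 and 3, against 2, 19 and 9 reads in the control replicates. These reads correspond to at most 1.26 CPM in a Sox10ko library and 0.487 CPM in a control library, and 42 of the 54 Sox10ko reads came from replicate 1. Cadm2 shares 256 exonic bases with the antisense gene 1700010K23Rik, and without a stated strand setting reads of the pair cannot be told apart. Cadm3 (ENSMUSG00000005338; chromosome 1, minus strand, 173333258 to 173367695) had 0, 5 and 3 reads in Sox10ko and 1, 1 and 2 in control. The library with 0 reads allows a level of up to 0.0899 CPM (3 reads), and 361 exonic bases are shared with Ackr1 on the same strand, so the few Cadm3 reads are uncertain. Neither gene passed the low-count filter. With so few reads, uneven between replicates for Cadm2, a difference between the groups could not be judged in the main analysis. Fitted without that filter, the edgeR adjusted p was 0.527 for Cadm2 and 0.627 for Cadm3.

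Neurons make Cadm1, Cadm2 and Cadm3, so neuronal markers were read alongside. Of 8 listed, 5 were tested, 1 was lower in Sox10ko (Tubb3) and 0 higher, where 14.7% of all tested genes were lower and 17.3% higher. The listed markers summed to 119 to 166 CPM in Sox10ko and 172 to 218 CPM in control, most of it Tubb3 and Map2. Rbfox3, a defining marker of neurons, had 0 reads in all 6 libraries, and Stmn2 had 0.0300 CPM in Sox10ko replicate 1 and 0 elsewhere. Syt1 was read at 3.18, 14.8 and 17.6 CPM in Sox10ko, in replicate order, against 1.08, 13.7 and 0.928 CPM in control. Snap25 was read at 2.52 to 3.54 CPM in Sox10ko and 1.93 to 2.33 CPM in control. Syt1 and Snap25 did not pass (edgeR adjusted p = 0.442 and 0.182). The part of these neuronal markers in the Cadm levels was not tested.

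Divided by the length of all annotated exons, the 4 Cadm genes can be set beside each other. Cadm4 made up 94.7%, 96.8% and 96.1% of the summed Cadm level in Sox10ko replicates 1, 2 and 3, against 89.0%, 84.1% and 89.1% in the control replicates. Cadm1 made up nearly all of the rest, with 4.12 ± 1.05% in Sox10ko and 12.6 ± 2.87% in control (SD, n = 3 each). The Cadm1 share was lower by 8.46 percentage points in Sox10ko, and all 3 Sox10ko libraries lay below all 3 control libraries (exact permutation test, two-sided, p = 0.1, the smallest that 3 against 3 allows). Cadm2 reached at most 0.0641% and Cadm3 at most 0.00662%, both in Sox10ko libraries. The ratio of the Cadm4 to the Cadm1 level was 18.0, 30.3 and 24.6 in Sox10ko and 8.13, 5.29 and 8.19 in control, again without overlap (exact permutation test, two-sided, p = 0.1). The summed level was 207 ± 55.4 CPM per kb in Sox10ko and 356 ± 55.7 CPM per kb in control, with the same p of the exact permutation test.

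**Figure D2:**
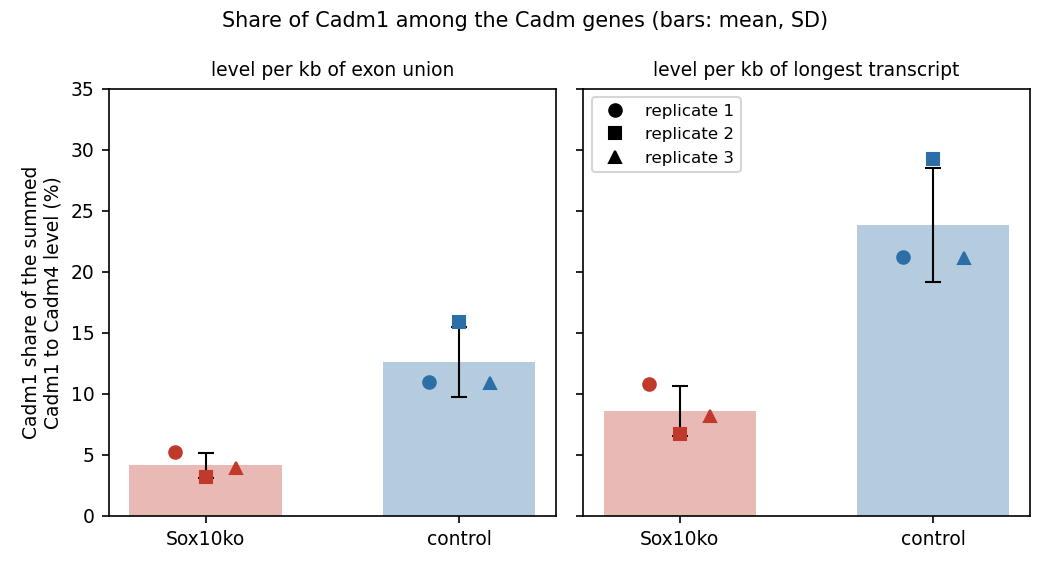
Share of Cadm1 in the summed level of Cadm1 to Cadm4 in percent, with levels per kb of all annotated exons (left panel) or of the longest transcript (right panel). Bars are means with SD, points are libraries. The Sox10ko libraries lay below the control libraries in both panels, at 4.12% against 12.6% on average in the left and 8.58% against 23.9% in the right.

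The size of these shares depends on the length used. Cadm1 has 10440 bases of annotated exon sequence but a longest transcript of 4767 bases, whereas both lengths are 2161 bases for Cadm4. With the longest transcript, the Cadm1 share was 8.58 ± 2.08% in Sox10ko and 23.9 ± 4.68% in control. The difference between the groups' mean log2 ratios of Cadm4 to Cadm1, 1.75, does not depend on length.

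Among the scaffold genes, Mpp6 (ENSMUSG00000038388; chromosome 6, plus strand, 50110241 to 50198939) had the widest spread of log2 CPM in Sox10ko. Its product binds the tail of Cadm4 and related Cadm proteins. Its 3 Sox10ko libraries had 54.2, 85.5 and 109 CPM, in replicate order, against 51.7, 55.8 and 47.8 CPM in the control replicates. Sox10ko replicate 1 lay within the control range, whereas replicates 2 and 3 were above it. The mean was 82.8 ± 27.3 CPM in Sox10ko and 51.7 ± 3.98 CPM in control (SD, n = 3 each), and the log2 fold change of 0.68 ± 0.23 (unadjusted 95% interval 0.13 to 1.23) did not pass (edgeR adjusted p = 0.0622). It passed without Sox10ko replicate 1 (0.90 on the log2 scale, edgeR adjusted p = 0.00474), with DESeq2 (adjusted p = 0.0244), with no low-count filter (edgeR adjusted p = 0.0337) and with library size alone as scaling (edgeR adjusted p = 0.0426). Its adjusted p over all 13 alternatives ran from 0.00474 to 0.191, and all gave a higher level in Sox10ko.

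Epb41l3 (ENSMUSG00000024044; chromosome 17, plus strand, 69075683 to 69289989) was read at 252, 279 and 401 CPM in Sox10ko replicates 1, 2 and 3 and at 246, 281 and 232 CPM in the control replicates. Only Sox10ko replicate 3 lay above the control range. The log2 fold change was 0.30 ± 0.18 with a 95% interval of -0.13 to 0.73 (edgeR adjusted p = 0.258), which allows anything from 0.912-fold to 1.66-fold. Dlg1 (ENSMUSG00000022770; chromosome 16, plus strand, 31663443 to 31875129) had 215, 255 and 312 CPM in Sox10ko and 229.6, 206 and 237 CPM in control, with Sox10ko replicates 2 and 3 above the control range and replicate 1 within it. Its log2 fold change was 0.21 ± 0.15 with a 95% interval of -0.13 to 0.56 (edgeR adjusted p = 0.309), or 0.913-fold to 1.47-fold. Neither gene passed in any of the 13 alternatives.

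**Figure D3:**
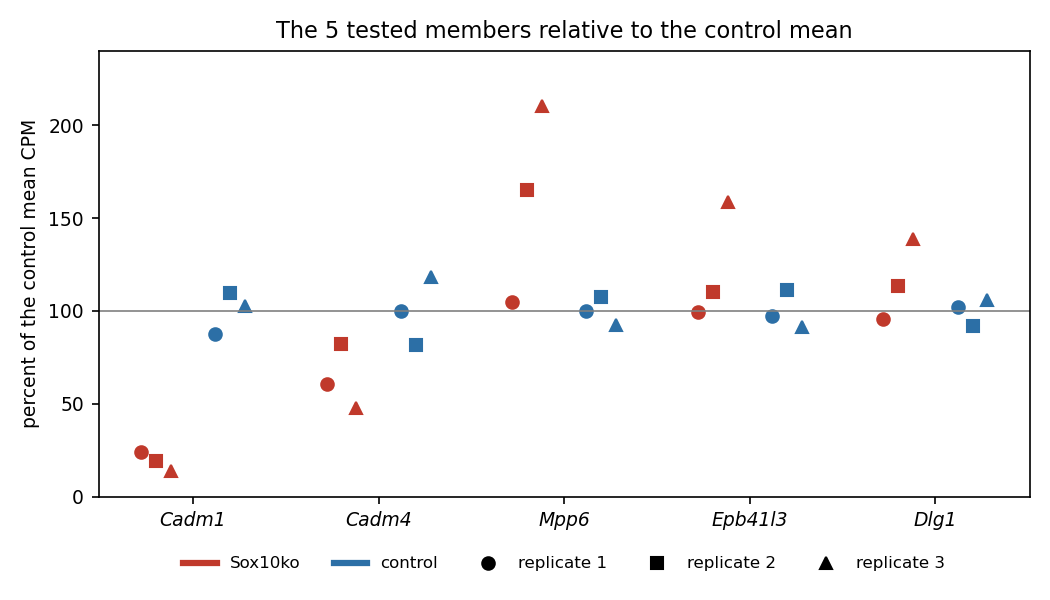
Level of the 5 tested members in each library as a percentage of the gene's control mean CPM; Sox10ko libraries are red, control libraries blue, and marker shapes give replicate numbers. Sox10ko replicate 3 was the highest for Mpp6 (210.0%), Epb41l3 (158.5%) and Dlg1 (138.9%) and the lowest for Cadm1 (13.9%) and Cadm4 (47.9%).

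For all 5 tested members, the SD of log2 CPM was larger among the Sox10ko cultures, between 0.27 and 0.51 in Sox10ko and between 0.11 and 0.27 in control. The same was the case for 64.1% of all tested genes, with a median SD of 0.23 in Sox10ko and 0.16 in control. Sox10ko replicate 3 held the highest Mpp6, Epb41l3 and Dlg1 levels of any library and the lowest Cadm1 and Cadm4 levels. Sox10 was also highest there among the Sox10ko libraries, at 116 CPM against 82.3 and 67.5 CPM in replicates 1 and 2. Without replicate 3, the log2 fold change was -2.22 for Cadm1, -0.49 for Cadm4, 0.42 for Mpp6, 0.06 for Epb41l3 and 0.06 for Dlg1, so that the values of Epb41l3 and Dlg1 were near 0 without that library. Median log2 fold changes of the tested members' chromosomes lay between 0.02 and 0.15.

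Per kb of annotated exon, the order of levels in Sox10ko was Cadm4, Epb41l3, Dlg1, Mpp6, Cadm1, Cadm2 and Cadm3, and in control Cadm4, Cadm1, Epb41l3, Dlg1, Mpp6, Cadm2 and Cadm3. Cadm1 thus stood in place 5 in Sox10ko and in place 2 in control, with 8.37 ± 2.22 CPM per kb in Sox10ko and 43.9 ± 5.04 CPM per kb in control (SD, n = 3 each). Library ranges of neighbours overlapped for Epb41l3 and Dlg1 and for Cadm2 and Cadm3 in both groups, and for Mpp6 and Cadm1 in Sox10ko. The other neighbours were apart. The order was the same per kb of the longest transcript, where Epb41l3 and Dlg1 were apart.

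Profiles over the 6 libraries were compared with Cadm1 for 9855 candidates, and the 3 closest are named. Candidates were tested genes whose mean reached 5 CPM, with a symbol other than a predicted name (Gm, Rik, BC, AC or AL names). Likeness was the root-mean-square difference of log2 CPM after centring each gene on its mean. Grb14, an adaptor of receptor tyrosine kinases, differed by 0.19, Ubash3b, a phosphatase of receptor signalling, by 0.20, and Mest, an imprinted gene, by 0.20. Their mean levels were 13.4, 17.4 and 3.98 CPM in Sox10ko and 74.2, 93.0 and 25.4 CPM in control.

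**Figure D4:**
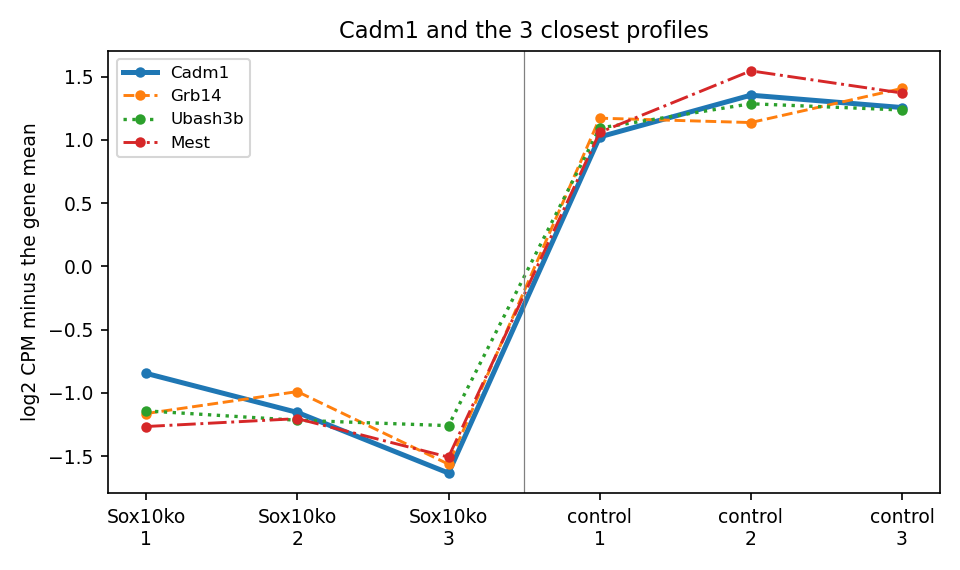
log2 CPM minus the gene's own mean in the 6 libraries for Cadm1 (thick line) and the 3 genes closest to it. Cadm1 lay below its mean in the 3 Sox10ko libraries, between -0.85 and -1.63, and above it in the 3 control libraries. The other 3 genes did likewise, which their choice by likeness to Cadm1 fixed.

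Relatives of the scaffold members changed in both directions. Of 14 other MAGUK and Lin7 genes, 13 were tested, 4 were higher and 2 lower in Sox10ko, and the median log2 fold change was 0.27, against 0.02 over all tested genes. The shares of all tested genes were 17.3% higher and 14.7% lower. Dlg2, a paralogue of Dlg1 of synapses and juxtaparanodes, was read at 6.02, 9.95 and 7.03 CPM in Sox10ko and 0.569, 0.359 and 0.439 CPM in control, without overlap. It rose 16.8-fold (log2 fold change 4.07 ± 0.31, edgeR adjusted p = 0.000214). Per kb of annotated exon its level in Sox10ko was 0.471 ± 0.125 CPM, against 24.2 ± 4.55 CPM for Dlg1. Mpp1 and Mpp2, paralogues of Mpp6, rose to 136 ± 17.2 and 27.7 ± 2.93 CPM in Sox10ko, against 70.7 ± 1.20 and 11.9 ± 1.46 CPM in control. Cask, a MAGUK that also binds Cadm tails, was at 109 ± 10.2 CPM in Sox10ko and 63.0 ± 6.70 CPM in control (edgeR adjusted p = 0.00261). The genes that fell were Dlg3 and Dlg4, 1.49-fold and 1.76-fold lower, both named after their values were seen, to complete the count. Lin7a had 0 reads.

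The membrane skeleton list, with paralogues of Epb41l3, spectrins, ankyrins and adducins, held 16 tested genes, of which 2 were higher and 3 lower, with a median of -0.02. Among all tested genes, 17.3% were higher and 14.7% lower. Epb41, the founding gene of the family, rose 2.05-fold to 78.7 ± 5.49 CPM in Sox10ko, against 38.4 ± 5.34 CPM in control (edgeR adjusted p = 0.00112). Ank3, which encodes ankyrin-G, fell 4.63-fold to 90.5 ± 13.0 CPM in Sox10ko, against 419 ± 113 CPM in control. Add3, the gamma-adducin gene whose product caps actin at spectrin junctions, fell 4.29-fold to a mean of 121 CPM in Sox10ko, against 522 ± 64.1 CPM in control (edgeR adjusted p = 0.000131). Epb41l4b fell 3.14-fold (edgeR adjusted p = 0.0194), a call lost without Sox10ko replicate 3, control replicate 2 or control replicate 3 (edgeR adjusted p up to 0.0679). The spectrin genes Sptan1 and Sptbn1 were at 565 ± 33.0 and 597 ± 4.98 CPM in Sox10ko and 527 ± 27.1 and 728 ± 79.8 CPM in control and did not pass (edgeR adjusted p = 0.462 and 0.0808).

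**Figure D5:**
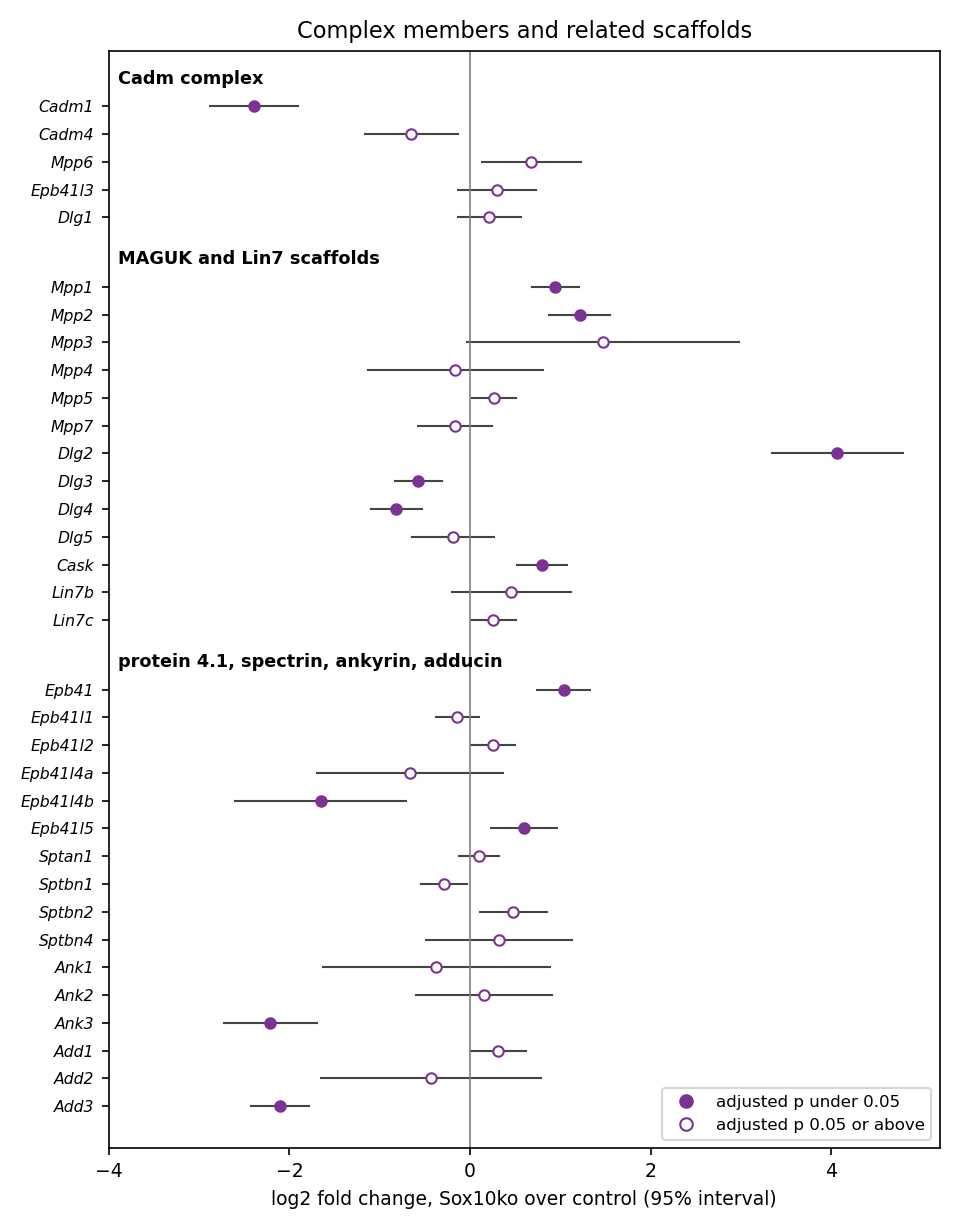
log2 fold change of Sox10ko over control with unadjusted 95% intervals for the tested complex members, MAGUK and Lin7 scaffolds, and membrane skeleton genes; filled points passed at an adjusted p under 0.05. Cadm1, Ank3 and Add3 lay below -2, and Dlg2 lay at 4.07.

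Of 7 tested genes tied to Dlg1 in Schwann cells, 1 was lower and 0 higher, with a median of -0.08. Over all tested genes, 14.7% were lower and 17.3% higher. Mtmr2, a phosphoinositide phosphatase gene of inherited neuropathy, was at 100.3 ± 1.30 CPM in Sox10ko and 106 ± 6.87 CPM in control (edgeR adjusted p = 0.509). Mtmr2 and the 2 spectrin genes were named for their roles, after their values were seen. Sbf2, whose product binds Mtmr2, was 1.31-fold lower (edgeR adjusted p = 0.0364), and that call was lost in 8 of 13 alternatives, among them those without Sox10ko replicates 1 or 3 and without each control replicate (edgeR adjusted p up to 0.0863).

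Nectins are the adhesion family closest to Cadm. Of 6 tested genes of nectins and their partners, 3 were higher and 0 lower in Sox10ko, with a median of 0.60. Over all tested genes, 17.3% were higher and 14.7% lower. Nectin1 rose 4.73-fold to 44.2 ± 4.99 CPM in Sox10ko, against 9.34 ± 0.967 CPM in control (edgeR adjusted p = 0.000100). Nectin2 rose 1.86-fold, and Afdn, the gene of afadin, which links nectins to actin, rose 2.59-fold to 211 ± 16.2 CPM, against 81.4 ± 6.46 CPM in control. All 3 calls held in all 13 alternatives. Crtam, a Cadm1 partner on lymphocytes, was close to 0 and not tested.

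Of 9 genes of axoglial contact, 5 were tested and 3 were lower, 0 higher, with a median of -7.75. Among all tested genes, 14.7% were lower and 17.3% higher. Kcna1, Kcna2 and Nfasc had reads enough for testing in the control libraries alone, which fixed their direction. Kcna2, a potassium channel gene of the juxtaparanode, had 1 read in Sox10ko and 716 in control, a ratio of 711 with an exact 95% counting interval of 127 to 28134. That read was in Sox10ko replicate 1, and without it Kcna2 was at least 169-fold lower, against 3 reads over the group. Kcna1, another channel gene of that site, had 5 reads in Sox10ko and 2786 in control, a ratio of 554 (counting interval 237 to 1706). Nfasc, the gene of the nodal and paranodal adhesion protein neurofascin, had 10 reads in Sox10ko and 2225 in control, a ratio of 221 (120 to 462). By mean CPM, Kcna2 was 604-fold, Kcna1 531-fold and Nfasc 230-fold lower, or 635-fold for Nfasc without Sox10ko replicate 2. Mag, Cntn1, Cntn2 and Cntnap2 were at or near 0 in both groups.

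Of 9 tested polarity genes, whose products meet MAGUK scaffolds at cell junctions, 3 were higher and 0 lower in Sox10ko, with a median of -0.17. The shares over all tested genes were 17.3% higher and 14.7% lower. Patj, the gene of a multi-PDZ tight junction scaffold, had 90.7, 4.44 and 3.81 CPM in the Sox10ko libraries in replicate order, against 0.0271, 0.154 and 0.195 CPM in the control replicates. Without Sox10ko replicate 1 its fold was 32.9, against 263 with it, and the call was lost without control replicate 1, 2 or 3 (edgeR adjusted p = 0.0518, 0.0506 and 0.0559) and with limma-voom (adjusted p = 0.119). Patj was testable only through its Sox10ko reads. Pard6b rose 2.17-fold (edgeR adjusted p = 0.0185) and Pard3 1.32-fold (edgeR adjusted p = 0.0441). Pard6b was lost without Sox10ko replicate 2, control replicate 1 or control replicate 3, and Pard3 in 8 of 13 alternatives. The list's count fell to 0 without control replicate 1 or 3, to 1 without control replicate 2 and to 2 without Sox10ko replicate 1 or 3, and with DESeq2 it was 3 higher and 2 lower. DESeq2 gave no adjusted p for Patj, so Patj was not among those 3.

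Markers of several other cell types differed between the groups. Smooth muscle markers summed to 118 to 670.3 CPM in Sox10ko and 0.759 to 1.03 CPM in control, most of it Acta2 in Sox10ko. Of the 5 listed, 4 were higher, where 17.3% of all tested genes were higher, but Acta2, Cnn1 and Myh11 were testable only through their Sox10ko reads, which fixed their direction. Epithelial markers summed to 75.7 to 103 CPM in Sox10ko and 0.0813 to 0.256 CPM in control, nearly all of it Krt7 in Sox10ko, and Epcam had a single read in the series. Both tested epithelial genes, Krt7 and Krt8, were higher and were likewise testable only through Sox10ko. Fibroblast markers summed to 1111 to 2316 CPM in Sox10ko and 462 to 587 CPM in control, with 3 of 5 tested genes higher, while Dcn reached at most 0.270 CPM and Lum 0.240 CPM in Sox10ko. Leukocyte markers summed to 5.82 to 10.8 CPM in Sox10ko and 1.93 to 3.10 CPM in control, mostly Cd68. Endothelial markers summed to 0.180 to 0.610 CPM in Sox10ko and 2.02 to 2.20 CPM in control. Most of the control sum was Cdh5, which was testable only through its control reads. Kdr went the other way, with 1, 7 and 1 reads in Sox10ko and 0 in each control library. Oligodendrocyte markers summed to 1.02 to 2.99 CPM in Sox10ko and 1.63 to 5.17 CPM in control, with overlapping ranges, and the 1 gene tested did not pass. The part of these shifts in the fall of Cadm1 was not tested.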

How the data were processed

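Read counts per Ensembl gene were deposited as whole numbers, 1 table per library. The submitters' processing notes name STAR 2.6.0c, HTSeq, DESeq2 and the build mm10 (GRCm38), without roles. Annotation, strand setting and filters: not given in the sources used here. A stranded mRNA kit was used, per the labels' protocols. Samples were grouped by their titles. Symbols matched 54042 of 54109 IDs. Positions and lengths came from GENCODE M21 on GRCm38, and promoter windows from RefSeq on GRCm38.p6.

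Genes passing filterByExpr were scaled with TMM and tested with edgeR 4.0.16 (glmQLFit and glmQLFTest, R 4.3.3) over all 6 libraries with no covariate. The test was two-sided, Benjamini-Hochberg adjusted over 15427 genes, with a threshold of 0.05. In all, 4939 genes were called. Profiles used log2 CPM with a prior count of 2. The edgeR fit was first run on simulated counts with known changes in far fewer genes than were called here. That run does not test the fit at this extent of change. One read was worth 0.0235 to 0.0300 CPM. Floors and intervals of read numbers cover counting error only. Replicates of a group differed by more than sampling noise.

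Named genes were all members, up to 4 called genes with the lowest adjusted p per surrounding list, the 3 closest profiles of each called member, and Sox10. The members and lists were chosen with earlier results of these data known. Alternatives were other scalings and filters, DESeq2 1.42.0, voom of limma 3.58.1, a replicate block, leaving out each library and, for shares, other lengths.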

Additional observations from a re-analysis of the deposited data

How the results depend on the processing

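Cadm1 passed in all 13 alternatives. The number of called members was 1 in the main analysis and 1 to 2 with 1 library left out. It was 2 with library size alone as scaling, where Mpp6 joined (log2 fold change 0.73), and 3 with no low-count filter (-0.69 for Cadm4, 0.64 for Mpp6) or with DESeq2 (-0.66 for Cadm4, 0.67 for Mpp6). The cause was not tested. With 1 library left out, the log2 fold change ran from -2.60 to -2.22 for Cadm1, from -0.89 to -0.49 for Cadm4, from 0.42 to 0.90 for Mpp6, from 0.06 to 0.42 for Epb41l3 and from 0.06 to 0.33 for Dlg1. Over all genes, 4939 were called. The number was 2869 to 4681 with 1 library left out (2869 of 16092 tested genes without control replicate 3). In the other alternatives it was 3375 to 5690, but the number of tested genes changed with the filter. It was 3375 of 10235 at a mean of at least 5 CPM, 5445 of 31218 with no low-count filter and 5690 of 15427 with DESeq2. Every fit with 1 library left out had fewer samples than the main fit, and why 2869 was the lowest was not tested. In the 6 lists around the complex, 21 of 56 tested genes were called, where 32.0% of all tested genes were called. That number was 15 to 23 with 1 library left out (15 without control replicate 3). In the other alternatives it was 18 (replicate block) to 26 (DESeq2), with 19 of 43 tested genes at a mean of at least 5 CPM. For this number, the alternatives were chosen after seeing the data.

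The labels do not say that replicate numbers pair the libraries. The deviations of same-numbered libraries from their group means correlated at -0.21, -0.10 and 0.07. Those of differently numbered libraries correlated at -0.12 to 0.19. With 3 libraries per group, whose deviations sum to 0 for each gene, these values cannot decide whether the libraries were paired. With a replicate block, 3537 genes and 1 member were called, and Cadm1 had a log2 fold change of -2.42.

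The difference in the Cadm1 share, -8.46 percentage points, ran from -9.31 to -6.80 with 1 library left out and was -15.3 with the longest transcript and -23.6 without length correction. The Cadm4 share difference was 6.77 to 9.29 with 1 library left out. The Cadm2 share difference, 0.0184 percentage points, ran up to 0.0284 with 1 library left out and reversed to -0.000545 without Sox10ko replicate 1, where most of its reads lay, and that of Cadm3 ran from 0.00176 to 0.00507. Cadm2 and Cadm3 had few reads, and those of Cadm2 were uneven between replicates (42, 7 and 5 in Sox10ko, 2, 19 and 9 in control). Their share differences therefore allow no firm reading.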
